A study of Mus musculus with 4 samples.

Results

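The Hox cluster genes on a mouse copy number array were examined, namely the autosomal genes whose name in the array's design starts with Hox, a cluster letter from a to d and a number. The rule gave 33 of 20445 autosomal genes, with 40 of 52385 autosomal probes. Of the 33 names, 32 are protein-coding Hox genes and the other is Hoxa11as, an antisense transcript of the Hoxa11 locus. The HoxA cluster held 9 members and the HoxB, HoxC and HoxD clusters 8 each. The rule used names only and no measured value. Of the 39 coding Hox genes in the RefSeq table of assembly GRCm38, the other 7 (Hoxa4, Hoxa5, Hoxa6, Hoxb8, Hoxb13, Hoxc11 and Hoxd4) were not analysed here.

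Hox genes encode homeodomain transcription factors that give cells along the body axis their positional identity. They lie in 4 clusters that arose by duplication, so that genes at the same place in different clusters form paralogue groups, and the order of genes in a cluster follows the order in which they act from anterior to posterior. In differentiated tissue many of them are held silent by Polycomb proteins, and the clusters are dense in CpG islands and poor in repeats. The array reads DNA copy number, so no value below is a level of expression.

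Genomic DNA of liver cells was compared with a pool of normal liver by array comparative genomic hybridisation, in which both DNAs compete for the same probes. There was 1 group of 4 samples, labelled TAK1LPC-KO_RIP3-_-, described by the study's title as TAK1-deficient liver parenchymal cells combined with a Rip3 knockout. TAK1, encoded by Map3k7, is a kinase of TNF signalling, and Ripk3 encodes RIP3, which drives necroptosis. The DNA came from formalin-fixed, paraffin-embedded sections, 250 ng was labelled with Cy5, and the Cy3 reference was a pool of 4 normal livers used on every array. The sources used here do not give the Cre driver, the age, sex and strain of the animals or the genotype of the pooled livers. A section holds other liver cells besides the parenchymal cells in which TAK1 was deleted. The labels do not say that the samples came from separate animals, so a p-value measures only how far these samples differ among themselves, which may be technical. The pool is 1 control sample, and a test of the ratio against 0 takes no account of how normal livers vary. No dyes were swapped, so a probe's dye effect and a difference in DNA cannot be told apart.

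The share of spots well above background ran from 84.3% to 89.9% for the samples and from 94.4% to 97.7% for the pool. Slide 1 carried replicates 1 and 2, and slide 2 carried replicates 3 and 4. Map3k7 gave log2 ratios of 0.47, 0.68, 0.77 and 0.68 on replicates 1 to 4, and Ripk3 gave values from -0.14 to -0.0019. Neither checks the labels, since no source used here says whether their probes lie in a deleted part.

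The sequences of a pair of probes from genes below the pool are shown first because they carry CpG dinucleotides, set in capitals, which Hox probes held more often than other probes of the array. The Hoxc12 probe, at chr15:102768853-102768903, lies in the homeobox, and the Hoxd10 probe is at chr2:74530340-74530395. Positions are on build mm9, as the files give them, and the letters run 5′ to 3′ as the files give them.
Hoxc12: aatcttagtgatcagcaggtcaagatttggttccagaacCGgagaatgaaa
Hoxd10: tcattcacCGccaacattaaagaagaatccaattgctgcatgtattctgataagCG

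The probes of Hoxa13 and Hoxd13 are shown as a pair because they read the same piece of the homeobox in paralogues whose ratios had opposite signs. The Hoxa13 probe, at chr6:52209027-52209081, is printed as the reverse complement of the deposited letters, and the Hoxd13 probe, at chr2:74508024-74508079, as deposited. Capitals mark bases that match in the best alignment without gaps, in which 30 of 43 bases (69.8%) agree.
Hoxa13: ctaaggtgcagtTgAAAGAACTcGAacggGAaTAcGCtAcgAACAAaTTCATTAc
Hoxd13: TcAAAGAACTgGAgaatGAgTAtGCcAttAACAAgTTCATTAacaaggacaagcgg
None of the 40 Hox probes shared a run of 20 bases with any other probe on the array, on either strand.

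The first comparison asked which Hox genes differed from the normal liver pool. A gene's value was its mean log2 ratio of sample over pool, and it was called at an adjusted p under 0.05 by limma with Benjamini-Hochberg adjustment over all 20445 genes and a mean at least 0.25 from 0. By this rule 12 of 33 Hox genes (36.4%) lay below the pool, where 19.3% of all genes did. Above the pool lay 2 genes (6.06%), Hoxa13 and Hoxa11as, where 16.1% of all genes did. The remaining 19 did not pass. Of the 33 Hox genes 28 rest on 1 probe, and all genes, here and below, were not matched to them in probes per gene. How far this shifts the shares was not tested. In either direction 35.4% of all genes were called, so a call says that a ratio was steady over 4 arrays against 1 pool and not that copy number differed. The median of the Hox gene means was -0.25, and that of all genes -0.01. On replicates 1 to 4 the median Hox gene stood at -0.24, -0.15, -0.14 and -0.13, whereas the median of all genes stood between -0.02 and -0.01. All 4 arrays therefore had a Hox median below that of the genes as a whole. Of the 33, 14 lay below the pool on all 4 arrays (28.4% of all genes did) and 7 above it on all 4 (26.1% of all genes did). Without replicate 1 the count above the pool was 4, near the share of all genes (12.2%). With any 1 replicate left out the count below it was 10 to 12, where 14.6% to 16.1% of all genes were below.

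**Figure D1:**
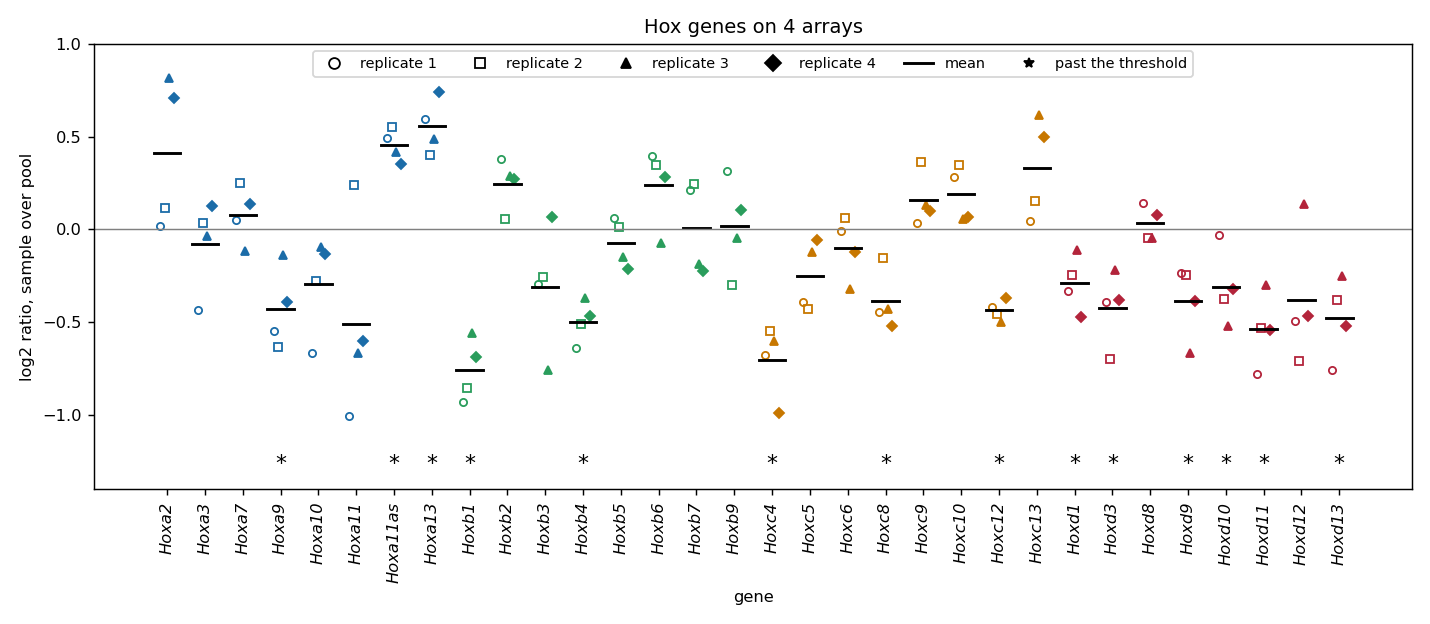
Log2 ratio of sample over pool for 32 of 33 Hox genes on 4 arrays, with the gene on the horizontal axis, 1 point per array, a bar at the mean and colours for the 4 clusters (blue HoxA, green HoxB, orange HoxC, red HoxD). Open symbols are slide 1 and filled symbols slide 2, and asterisks mark the 14 genes past the threshold, of which 12 lie below 0.

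The HoxD cluster on chromosome 2, whose posterior members pattern limbs, digits and genitalia, lay lowest. From 74508024 to 74602612 (94.6 kb) it held 8 members, and 6 of them (Hoxd1, Hoxd3, Hoxd9, Hoxd10, Hoxd11 and Hoxd13) were below the pool. Of all genes, 19.3% were. The median member gave -0.36, -0.38, -0.24 and -0.43 on replicates 1 to 4, all below 0, and the median of gene means was -0.38. Of its 11 probes, 9 had a mean below 0. The 13 other autosomal probes outside this span but within 500 kb had a median of 0.00, and 6 of them lay below 0. Without replicate 4, 3 members of HoxD were below the pool, and without replicate 2, 4 were, where 16.1% and 14.6% of all genes were. Over 14 alternatives, some of them without 1 replicate, the cluster median stayed between -0.52 and -0.30. Those that changed only the test could not move it.

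Among the posterior HoxD genes, Hoxd11, which shapes forearm and kidney together with Hoxa11, gave -0.78, -0.53, -0.30 and -0.54 on replicates 1 to 4. Replicate 1 was farthest from the pool and replicate 3 nearest to it. The mean was -0.54 ± 0.20 (SD, n = 4; limma, adjusted p = 0.00538). Hoxd13, the digit gene whose mutations cause synpolydactyly, gave -0.76, -0.38, -0.25 and -0.52, with a mean of -0.48 ± 0.22 (limma, adjusted p = 0.00949). It followed the same order, with replicate 1 lowest and replicate 3 highest. Hoxd9, which acts in lumbosacral and limb patterning, gave -0.24, -0.25, -0.67 and -0.39 and a mean of -0.39 ± 0.20 (limma, adjusted p = 0.0169). Here replicate 3 was the lowest of the 4. Without replicate 4 the mean was -0.38 and just missed the threshold (limma, adjusted p = 0.0508).

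Hoxd10, a neighbour of Hoxd9 and Hoxd11 with a role in hindlimb motor neurons, had a mean of -0.31 ± 0.21 (limma, adjusted p = 0.0355). Its replicate 1, at -0.03, lay near the pool, and the call was lost in 6 of 14 alternatives. Among these, it stood at -0.29, -0.24 and -0.31 without replicates 2, 3 and 4 in turn. Hoxd12 had a mean of -0.38 ± 0.36 and did not pass (limma, adjusted p = 0.0647). Its replicates 1, 2 and 4 stood at -0.49, -0.71 and -0.47, whereas replicate 3 stood above the pool at 0.14. Without replicate 3 the mean was -0.56 and passed (limma, adjusted p = 0.0122).

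At the anterior end of HoxD, Hoxd3, which acts in the cervical vertebrae, gave -0.39, -0.70, -0.22 and -0.38. All 4 arrays were below the pool, and the mean was -0.42 ± 0.20 (limma, adjusted p = 0.0123). Its 2 probes differed, with means of -0.16 ± 0.40 and -0.69 ± 0.18. The first was well above background in the sample on only 1 of 4 arrays, so the gene's size and the order of its arrays are not measured. The second, bright on all arrays, gave -0.93, -0.68, -0.53 and -0.61, with replicate 1 lowest. Hoxd1 had a mean of -0.29 ± 0.15 (limma, adjusted p = 0.0269), a value just past the size limit. It lost its call without replicates 1, 2 and 4 in turn, at -0.28, -0.31 and -0.23 (limma, adjusted p = 0.0841, 0.0668 and 0.0881).

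Hoxd8, in the middle of the cluster, was its highest member, with 0.14, -0.05, -0.04 and 0.08 on replicates 1 to 4. The arrays fell on both sides of 0 and the mean was 0.03 ± 0.09 (limma, adjusted p = 0.726). This mean joins 3 probes that went different ways, at 0.01 ± 0.05, 0.66 ± 0.09 and -0.57 ± 0.33. The latter pair lie 204 bases apart. The last of them, with 25% GC, was too dim in the sample to count as above background on any array, so its measured ratio is no estimate of size. With only probes above background in both channels on every array, Hoxd8 stood at 0.32 and was called above the pool (limma, adjusted p = 0.00346).

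Probes of other names inside the HoxD span also differed among themselves. The ones of 2 transcripts without a symbol had means of -0.34 ± 0.20 and -0.54 ± 0.15. Both probes of 1700109F18Rik, a RefSeq synonym of the antisense transcript Hoxd3os1, lay closer to or above the pool, at -0.08 ± 0.06 and 0.30 ± 0.19. They lie between the probes of Hoxd8 and Hoxd3.

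**Figure D2:**
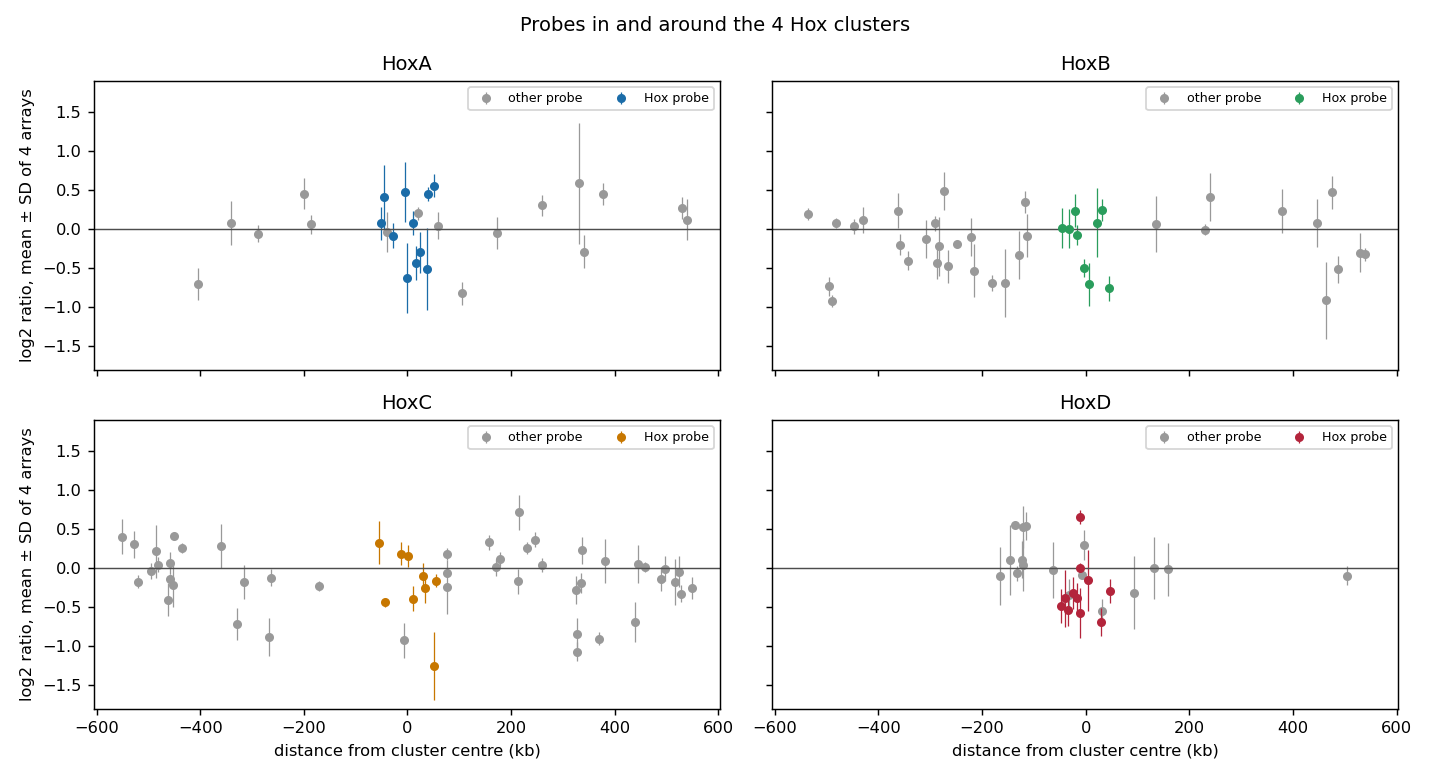
Mean log2 ratio (± SD of 4 arrays) of each autosomal probe against its distance in kb from the centre of its Hox cluster, for HoxA, HoxB, HoxC and HoxD, with Hox probes coloured and other probes grey. In HoxD, 9 of 11 Hox probes lie below 0, whereas in the other clusters Hox probes lie on both sides of 0.

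The HoxA cluster on chromosome 6, whose genes act in the hindbrain, limb, reproductive tract and blood, was split. Its median was 0.08, or -0.03 with normexp background correction, with 1 of 9 members below and 2 above the pool. Of all genes 19.3% were below and 16.1% above, so counts this small are near those shares. Both HoxA members above lie at the 5′ end of the cluster, next to each other. Hoxa13, a gene of limb, gut and genital ends, gave 0.60, 0.40, 0.49 and 0.74 on replicates 1 to 4. All arrays lay above the pool, and the mean of 0.56 ± 0.15 was the highest of all Hox genes (limma, adjusted p = 0.00327). Hoxa11as gave 0.49, 0.55, 0.42 and 0.35, also above the pool throughout, with a mean of 0.45 ± 0.09 (limma, adjusted p = 0.00376). With normexp background correction its mean was 0.24, short of the size limit.

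Hoxa11, a gene of the forearm, kidney and uterus, lies on the other side of that antisense probe, 2500 bases away, and gave -1.01, 0.24, -0.67 and -0.60. Replicate 2 stood on the other side of 0 from the rest, and the mean of -0.51 ± 0.53 did not pass (limma, adjusted p = 0.0726). Its probe was above background in the sample on replicate 2 alone, so the values below the pool all come from arrays where the sample was dim, and their size is not measured. A test without replicate 2 would rest on dim arrays only and is not given.

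Hoxa9, a regulator of blood progenitors and an oncogene in leukaemia, was the only HoxA member below the pool by the rule. It gave -0.55, -0.63, -0.14 and -0.39, lower on slide 1 than on slide 2, with a mean of -0.43 ± 0.22 (limma, adjusted p = 0.0139). Its probe, at 44% GC, was the richest in GC of all Hox probes. After correction for probe GC its mean was -0.18 and it no longer passed (limma, adjusted p = 0.163). It also missed the threshold without replicate 1, at -0.39, and without replicate 2, at -0.36 (limma, adjusted p = 0.0527 and 0.0511). Hoxa10, a gene of the uterus and lumbar spine, had a mean of -0.29 ± 0.26 and did not pass.

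At the anterior end of HoxA, Hoxa2, which patterns the second pharyngeal arch, gave 0.02, 0.12, 0.81 and 0.71. Slide 2 was high and slide 1 near the pool, and the mean of 0.41 ± 0.40 did not pass (limma, adjusted p = 0.0664). Hoxa3, a gene of thymus and parathyroid, had a mean of -0.08 ± 0.25 over 3 probes at -0.08, 0.47 and -0.62. Hoxa7 was near the pool, at 0.08.

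The HoxB cluster on chromosome 11, from 96136964 to 96228838, had 2 of 8 members below the pool, near the 19.3% of all genes. Its median was -0.03. This median ranged from -0.18 with normexp to -0.0029 over 14 alternatives. Hoxb1, which specifies the facial nerve segment of the hindbrain, gave -0.93, -0.85, -0.56 and -0.69 on replicates 1 to 4. Every array was far below the pool, slide 1 more so, and the mean of -0.76 ± 0.17 was the lowest of all Hox genes (limma, adjusted p = 0.00171). Hoxb4, which expands blood stem cells when overexpressed, gave -0.64, -0.51, -0.37 and -0.47 and a mean of -0.50 ± 0.11 (limma, adjusted p = 0.00347). Its 4 arrays were close together and all below 0.

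Hoxb2, the neighbour of Hoxb1, was the highest HoxB gene, with 0.38, 0.05, 0.29 and 0.27. All arrays lay above the pool, and its mean of 0.25 ± 0.14 stood just short of the size limit (limma, adjusted p = 0.0393). Without replicate 2 it passed, at 0.31 (limma, adjusted p = 0.0361). Hoxb6, at 0.24 ± 0.21, did not pass either, but did without replicate 3, at 0.34 (limma, adjusted p = 0.0267). Hoxb3 had a mean of -0.31 ± 0.34 over probes at -0.71 ± 0.28 and 0.09 ± 0.44, 15730 bases apart. Hoxb5, Hoxb7 and Hoxb9 had means from -0.07 to 0.02.

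The HoxC cluster on chromosome 15, from 102758761 to 102867278, had 3 of 8 members below the pool, where 19.3% of all genes were. Its median was -0.17. This median was not steady, at 0.01 with only probes above background. Hoxc4, at the anterior end, gave -0.68, -0.55, -0.60 and -0.99, with replicate 4 lowest and all arrays below the pool. Its mean was -0.70 ± 0.20 (limma, adjusted p = 0.00253). The first of its 2 probes stood at -1.25 ± 0.43 and the second, 2056 bases away, at -0.16 ± 0.08. Both were well above background on all arrays.

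Hoxc12, a posterior gene, gave -0.42, -0.45, -0.50 and -0.37, with a mean of -0.44 ± 0.06 (limma, adjusted p = 0.00354). Its SD was the smallest of all Hox genes. After correction for probe and regional GC its mean was -0.22, short of the size limit. Hoxc8, a thoracic and brachial motor neuron gene, gave -0.45, -0.15, -0.43 and -0.52 and a mean of -0.39 ± 0.16 (limma, adjusted p = 0.0113). Replicate 2 was nearest the pool. Its probe was above background in the sample on 1 of 4 arrays, and with normexp background correction the mean was -0.09 and did not pass.

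Hoxc13, which acts in hair and nails, was the highest HoxC gene, with 0.04, 0.16, 0.61 and 0.50. Slide 2 was high and slide 1 low, and the mean of 0.33 ± 0.27 did not pass (limma, adjusted p = 0.0526). Without replicate 1 it passed, at 0.42 (limma, adjusted p = 0.0402). Hoxc9 and Hoxc10 stood at 0.16 ± 0.14 and 0.19 ± 0.15, and Hoxc6 at -0.10 ± 0.17. The Hoxc5 probe was dim in the sample, not above background on any array, and no fold is given for it. A further probe between those of Hoxc10 and Hoxc9, of a transcript without a symbol, stood at -0.92 ± 0.22.

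The second comparison asked whether a Hox gene differed from the DNA around it. From each gene the median of autosomal probes within 500 kb was subtracted on each array, leaving out its own probes. For Hox genes the probes of all Hox genes were left out too, whereas other genes kept all probes but their own. The 20215 genes with at least 5 probes left were tested. The shares of Hox genes and of all genes therefore rest on surroundings that were not built alike. Below their surroundings lay 15 of 33 Hox genes (45.5%), where 15.5% of all genes did, and above them 5 (15.2%), where 15.1% of all genes did. In either direction 30.6% of all genes passed. All 12 genes below the pool and both above it were called in the same direction here, and the surroundings of the 33 genes had means from -0.14 to 0.08. The 2 comparisons use the same gene values and the same pool, so the second does not stand apart from the first. The median of the differences was -0.18 for Hox genes and 0.00 for all genes. The counts depended on single arrays. Without replicate 4, 7 genes were below and without replicate 1, 8, where 11.6% and 10.5% of all genes were. With any 1 replicate left out 3 genes were above, where 10.03% to 11.28% of all genes were. This count is near that share.

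The 3 genes below only by this comparison were Hoxa10, Hoxa11 and Hoxd12, and the 3 above only by it were Hoxb2, Hoxb6 and Hoxc13. Hoxa11 gave a difference of -0.58 ± 0.45 (limma, adjusted p = 0.0300) and Hoxd12 of -0.46 ± 0.40 (limma, adjusted p = 0.0460). Hoxa10 gave -0.35 ± 0.28 (limma, adjusted p = 0.0487), and this call was lost in 8 of 15 alternatives. Its probe was dim in the sample on replicate 1, its lowest array, so the size of that value is not measured. The call of Hoxd12 was lost in 8 of 16 and that of Hoxa11, whose values below rest on dim arrays, in 5 of 15. Hoxb2 gave 0.36 ± 0.16, Hoxb6 0.35 ± 0.18 and Hoxc13 0.37 ± 0.27 (limma, adjusted p = 0.0175, 0.0225 and 0.0380). The call of Hoxb2 was lost in 4 and those of Hoxb6 and Hoxc13 each in 7 of 16 alternatives. Each of these 6 genes lost its call when certain single replicates were left out, with differences then of -0.56 to -0.43 for Hoxa11, -0.41 to -0.38 for Hoxd12, -0.38 to -0.24 for Hoxa10, 0.31 to 0.33 for Hoxb2, 0.28 to 0.37 for Hoxb6 and 0.28 to 0.42 for Hoxc13. Of the genes called in both comparisons, Hoxa9, Hoxb4, Hoxc8, Hoxd1 and Hoxd10 lost this call without 1 or more single replicates. Hoxa13, Hoxa11as, Hoxb1, Hoxc4, Hoxc12, Hoxd3, Hoxd9, Hoxd11 and Hoxd13 kept it whichever single replicate was left out.

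By cluster, the median difference from the surroundings was 0.02 in HoxA, 0.08 in HoxB, -0.11 in HoxC and -0.47 in HoxD. In HoxD 7 of 8 members were below their surroundings, where 15.5% of all genes were. The exception was Hoxd8, at -0.05 ± 0.05, whose mean includes a dim probe. It stood above its surroundings in 4 alternatives, at 0.25 with only probes above background, so it is not shown to lie below them. Without replicate 4, 4 HoxD members were below, where 11.6% of all genes were. The HoxD members share nearly the same surroundings, of 16 or 17 probes with means of 0.08 or 0.06. Their differences are therefore not separate comparisons. The cluster medians of the difference in HoxA, HoxB and HoxC changed sign under at least 1 alternative, and that of HoxD stayed between -0.62 and -0.39.

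**Figure D3:**
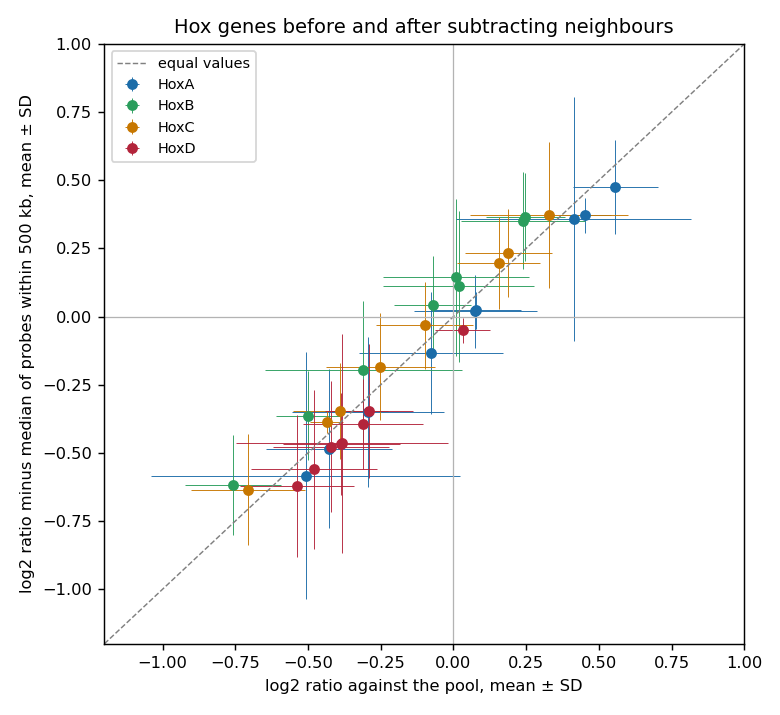
Mean log2 ratio against the pool (horizontal) and mean log2 ratio minus the median of probes within 500 kb (vertical), each with its SD over 4 arrays, for 33 Hox genes coloured by cluster, with a dashed line of equal values. The points lie near the line, with HoxA and HoxD genes slightly below it and HoxB and HoxC genes slightly above it.

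By paralogue group, which runs from anterior (1) to posterior (13), values were mixed. Groups 1 to 3 had a median of -0.18 over 8 genes, groups 4 to 8 of -0.09 over 10 and groups 9 to 13 of -0.35 over 14. Of the last, 6 genes were below the pool and 1 above, where 19.3% and 16.1% of all genes were. Both measured members of group 4, Hoxb4 and Hoxc4, were below the pool. In group 13 Hoxa13 stood at 0.56 and Hoxc13 at 0.33, whereas Hoxd13 stood at -0.48, although the Hoxa13 and Hoxd13 probes printed above overlap in the homeobox. In group 1 Hoxb1 and Hoxd1 were below the pool.

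**Figure D4:**
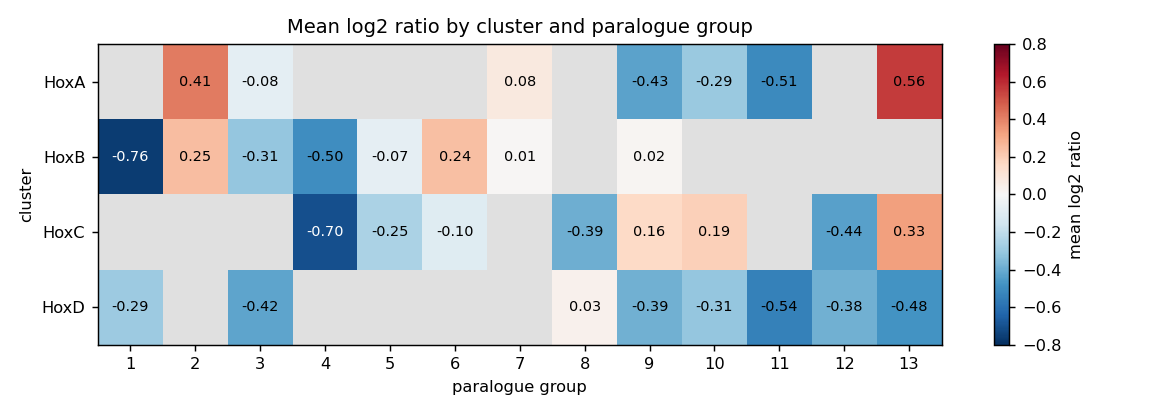
Mean log2 ratio of coding Hox genes by cluster (rows) and paralogue group (columns), with red above and blue below the pool and grey where no value is shown. The HoxD row is below 0 in all cells except Hoxd8, and group 13 holds both the highest value, 0.56, and one of -0.48.

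Hox probes differed from other probes in sequence. Of 40, 27 (67.5%) held at least 1 CpG, where 35.8% of all autosomal probes did, and a Hox probe held 0.95 CpG on average against 0.445. Hox probes with a CpG had a median ratio of -0.29 and those without 0.02, and over all probes the medians were -0.02 and 0.01. Probes with a CpG nevertheless lay on both sides of 0. The highest of all 40 probes, of Hoxd8 at 0.66, held 2 CpG, and Hoxa13, with 4 CpG, also stood above the pool. The GC content of Hox probes was close to that of the array, with means of 36.8% and 36.3%. Across the 40 probes the ratio had a Pearson r of -0.10 with GC and of -0.20 with the number of CpG, a description only, since the probes share arrays and pool. After correction for probe GC, 11 Hox genes were below and 3 above the pool, where 17.1% and 15.8% of all genes were. After correction for probe and regional GC the counts were 10 and 3, where 16.1% and 15.7% of all genes were. The part of CpG content in the Hox ratios was not tested.

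Shares of probes above background were close to those of the array. In the sample channel 33 of 40 (82.5%) were well above background on all 4 arrays, where 82.2% of all autosomal probes were, and in the pool channel 97.5% against 93.9%. Besides the Hoxc5 probe and the Hoxd8 probe at -0.57, dim in the sample throughout, 5 probes were dim on some arrays, namely those of Hoxa10, Hoxa11 and Hoxc8, 1 of Hoxa3 and 1 of Hoxd3. With only probes above background in both channels on all arrays, 29 Hox genes were left, of which 13 were below and 5 above the pool. With this filter 21.1% of all genes were below and 18.3% above, so the count above is near the share of all genes. The 5 above were Hoxa13, Hoxa11as, Hoxc13, Hoxd8 and Hoxa2.

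**Figure D5:**
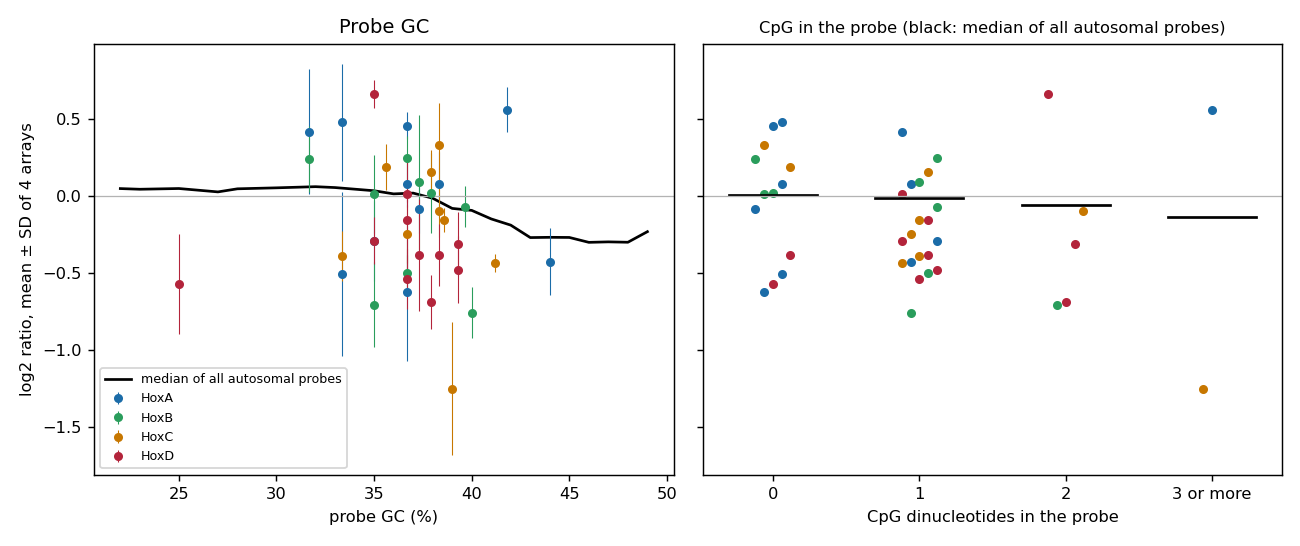
Mean log2 ratio of 40 Hox probes against probe GC in percent (left, with SD over 4 arrays) and against the number of CpG dinucleotides in the probe (right), coloured by cluster, with the median of all autosomal probes in black. The probe with the lowest ratio, of Hoxc4 at -1.25, holds 4 CpG, as does the Hoxa13 probe at 0.56.

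Neighbouring Hox probes did not always agree. In 33 pairs of adjacent Hox probes up to 20 kb apart the median absolute difference in mean log2 ratio was 0.40, and over 27771 such pairs on all autosomes it was 0.32. Some of the Hox pairs hold a probe that was dim in the sample, among them a pair of Hoxd8 probes and a pair of Hoxa3 probes. The differences of such pairs are not measured sizes. The median of 0.40 includes them, so it does not show that Hox pairs differ more than other pairs. Of pairs whose probes were above background on all arrays, the Hoxc4 probes differed by 1.09 over 2056 bases, and Hoxb2 and Hoxb1 by 1.01 over 13648 bases. Of 33 members 28 rest on 1 probe, so for them a gene's ratio and a single probe's behaviour cannot be told apart.

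Between the slides, 0 Hox genes differed at an adjusted p under 0.05 by limma, as did 0 of all 20445 genes (0.0%). At an unadjusted p under 0.05, 4 Hox genes differed, where 10.8% of all genes did, and these were Hoxa2, Hoxb7, Hoxc5 and Hoxc13. The probe of Hoxc5 was dim in the sample on every array, so its difference is not measured. Hoxa2 stood higher on slide 2 by 0.69 and Hoxc13 by 0.46. The difference, slide 2 minus slide 1, was -0.43 for Hoxb7. Each slide held different samples, so slide and sample cannot be told apart. With 2 arrays a slide, the smallest adjusted p among Hox genes was 0.439.

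Genes that work with Hox proteins or control them, and neighbours of the clusters, were read against the 16.1% of all genes above and 19.3% below the pool. Counts this small show nothing about a list. Of 9 TALE cofactors, the Pbx, Meis and Prep proteins that bind DNA with Hox proteins, 3 were below the pool and 1 above, with a list median of -0.08. Meis3 gave -0.82, -0.67, -0.69 and -0.79, low on every array, with a mean of -0.74 ± 0.08. Pbx2 had a mean of -0.33 ± 0.09. Pbx4 was the member above, at 0.26 ± 0.12. Without replicate 3 the list had 2 calls in place of 4, where 12.8% of all genes were above the pool and 15.7% below.

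Of 19 measured Polycomb and Trithorax regulators, the repressors and activators that hold Hox expression states, 4 were above and 5 below the pool, with a median of -0.02. Cbx2, a Polycomb reader subunit, had a mean of -0.97 ± 0.32 on 1 probe. Eed and Suz12, core subunits of the complex that methylates histone H3 at Hox clusters, both had means of 0.52, with SDs of 0.14 and 0.15. Without replicate 2 this list had 6 calls in place of 9, where 12.1% of all genes were above the pool and 14.6% below. Of the 6 ParaHox and even-skipped relatives listed, 3 were measured (Gsx1, Gsx2 and Cdx2) and 0 passed by limma. Without replicate 3, 1 passed, where 12.8% of all genes were above the pool and 15.7% below. Of 18 measured outer neighbours of the clusters, 1 was above and 3 below the pool, with a median of 0.00. Ttll6, beside HoxB, had a mean of -0.69 ± 0.26, Calcoco1 of -0.50 ± 0.09 and Calcoco2 of -0.31 ± 0.11. Without replicate 1 this list had 2 calls, where 12.2% of all genes were above the pool and 14.9% below.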

How the data were processed

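Per the file headers, the deposited intensity of each spot was processed by Agilent Feature Extraction 10.10.1.1 (background subtraction, detrending, dye normalisation). The deposited log10 ratio column, per the file headers Cy5 over Cy3, was used as a check. A deposited table of log2 values was used as an alternative. Its direction and scale were read from its match to the scanner values (r of 0.91 to 0.92 with the same array, at most 0.69 with another, slopes of 1.00 to 1.09, column medians from -0.04 to 0.05), and its normalisation within arrays stays unknown. Positions are on mm9, and exon, intron and untranslated parts on that build were not used here.

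From the processed intensities the log2 ratio of Cy5 to Cy3 was formed without control and outlier spots. Repeat spots were averaged per probe, the median over autosomal probes was subtracted per array, and no loess or quantile step followed. A gene is the mean of its probes. The tests used lmFit and eBayes of limma 3.58.1 (R 4.3.3) with Benjamini-Hochberg adjustment. The number of arrays limits the precision. The fit was tested on simulated data with independent noise and most genes at a true mean of 0. They held no offset shared through 1 pool or 1 dye order, so they cannot show that calls here are sound. Probe GC was corrected with lowess (fraction 0.3, statsmodels 0.14.6) through medians of GC classes with at least 20 probes. The regional correction added a second lowess over single probes, on the mean GC of autosomal array probes within 500 kb. It therefore used the GC of array probes and not that of the genome around them. Normexp used an offset of 50. Of the members 32 matched RefSeq by symbol and 1 by synonym.

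The members and lists were chosen with earlier results of these data known. By rule, values on every array are given for up to 12 called members by absolute mean and for the highest and lowest member of each cluster, and up to 3 called members of each list are named. Further genes, and Ripk3 and Map3k7, were named to account for every member or after their values were seen. Sequences are printed only for probes that lie in coding sequence, so those of other high, low or discordant probes are left out. A member, a list gene and a sequence that the rule would name are not reported here; counts and medians include the genes.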

Additional observations from a re-analysis of the deposited data

Results flagged for a closer look

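In 135 sets of 4 array values, 4 had 1 array far from the other 3 by Dixon's test at its 95% critical value, and chance alone flags about 1 in 20. Hoxd12, taken against its surroundings, stood at 0.13 on replicate 3, and the other arrays stood between -0.72 and -0.63. The third Hoxa3 probe, starting at 52156863 on chromosome 6, stood at -1.29 on replicate 1, with the others between -0.47 and -0.34. It was not above background in the sample on replicate 1, so the size of that value is not measured. Pbx2 stood at -0.19 on replicate 4, with the others between -0.40 and -0.37. Phc2, a Polycomb subunit, stood at -0.27 on replicate 2, with the others between -0.11 and -0.09.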

How the results depend on the processing

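Against the pool, Hoxa13, Hoxb1, Hoxb4, Hoxc4, Hoxd3, Hoxd11 and Hoxd13 kept their calls in all 14 alternatives. Some alternatives left out 1 replicate, and those that changed only the test could not move a mean or a median. Taking the median over probes could not change the value of a gene with 1 probe. Against the surroundings, centring arrays on the mode cancelled, so it could not change a value. With only probes above background 5 of 29 Hox genes lay above the pool, where 18.3% of all genes did. At a size limit of 0.5, 3 lay below (1 of them in HoxD) and 1 above, and against the surroundings 5 below (2 in HoxD) and 0 above (limma). The share of all genes at that limit was not computed, so these counts have nothing to be read against. Leaving out 1 replicate gave 2 to 4 above the pool, 10 to 12 below it and 3 to 6 below in HoxD. The shares of all genes were then 12.1% to 13.1% above and 14.6% to 16.1% below. Against the surroundings it gave 3 above, 7 to 12 below and 4 to 6 below in HoxD. There the shares of all genes were 10.03% to 11.28% above and 9.92% to 11.62% below. With normexp, the deposited log2 table, either GC correction and slide means as 2 samples alike, 3 lay above the surroundings. Of all genes 8.9% (slide means) to 15.1% (probe GC correction) did. With slide means 9 lay below the surroundings, 4 of these in HoxD, where 9.7% of all genes did. Hoxd8, not called against the pool, changed sign there to -0.00325 and -0.024 under the probe and the probe and regional GC corrections, and gave -0.00463 to 0.059 with 1 replicate left out. Against its surroundings it changed sign to 0.030 with normexp, 0.11 in the deposited table, 0.25 with probes above background and 0.039 with a window of 1000 kb. Hoxc8 against its surroundings changed sign to 0.020 with normexp. The cause was not tested. With normexp the TALE list had 2 calls and the outer neighbours 2, where 12.2% of all genes were above the pool and 17.3% below. With probes above background the ParaHox list had 1, where 18.3% and 21.1% were. Without 1 replicate the lists had 2 to 4, 0 to 1, 6 to 10 and 2 to 4 calls, for TALE, ParaHox, Polycomb and neighbours in turn. Of all genes 12.1% to 13.1% were then above the pool and 14.6% to 16.1% below it. Counts this small show nothing about a list. No paired analysis was possible because there was 1 group. Dim probes limit Hoxc5, Hoxc8, Hoxa11 and Hoxd8, and on some arrays also Hoxa10, 1 probe of Hoxa3 and 1 of Hoxd3.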
